A study of Mus musculus with 10 samples.

Results

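The genes described here are 49 splicing factor genes of the mouse kidney, out of 30943 genes with a symbol on the array. They were taken by name, as every deposited symbol that begins with Srsf, Snrp, Hnrnp, Sf3a or Sf3b followed by the letter or digit of a family member. The rule gave 57 array features for 49 symbols, and a gene with several features was represented by the one with the highest mean over the 10 arrays. The set held 10 serine/arginine-rich proteins (SR proteins, Srsf genes), 20 heterogeneous nuclear ribonucleoproteins (hnRNPs, Hnrnp genes), 10 proteins of the small nuclear ribonucleoproteins (snRNPs, Snrp genes) and 9 subunits of splicing factor SF3A or SF3B. Of the 49, 46 lay at or above the median of all genes by mean signal, and Srsf12 and Sf3b4 were the 2 members below the 30th percentile.

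Introns are removed from pre-mRNA by the spliceosome, which is built from the U1, U2, U4, U5 and U6 snRNPs. SR proteins bind exonic sequences and help the spliceosome choose nearby splice sites, whereas many hnRNPs coat the transcript and often block such sites, so the balance between them shifts exon choice. A ring of Sm proteins forms the core of most snRNPs, and SF3A and SF3B are parts of the U2 snRNP that hold it on the branch point of the intron. Many of these proteins limit their own mRNA by splicing in exons that lead to its decay, and a gene-level array value does not separate such transcripts from productive ones.

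The tested samples were 5 kidneys of mice given cyclosporin A (CsA), a calcineurin inhibitor, by daily subcutaneous injection of 60 mg/kg for 7 days, and the controls were 5 kidneys of mice given the solvent cremophore in the same way, called vehicle here. All mice were 10 to 12 weeks old, had a C57BL/6 background, ate low sodium chow (0.05% sodium) and came from a line in which Vhl can be deleted in Pax8-expressing cells by doxycycline through Pax8-rtTA. Whether doxycycline had been given is not stated for either group, nor that each sample is a separate animal, so p-values measure the spread between these samples only. The study looked, at this early time, for pathways that could lead to the renal damage seen later. Values are log2 expression, 1 per gene and array. Array medians lay between 5.14 and 5.21, and 13 kidney markers averaged 10.48 to 10.90 in the CsA arrays and 10.76 to 10.82 in the vehicle arrays. Of these 13, 2 were called higher over all arrays and 1 lower in males only, 6 had an unadjusted p under 0.05 over all arrays, and the lowest difference was -2.29 over all arrays and -0.43 without the female ones described next.

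CsA replicates 1 and 2 carried female RNA, since Xist stood at 9.21 and 9.15 there and 4 genes of the Y chromosome averaged 3.90 and 4.03. The other 8 arrays had Xist at 4.82 or less and a Y-linked mean of at least 6.91, so every vehicle array was male. The labels mention no sex, and differences are therefore given for all 10 arrays and for the 8 male arrays (3 CsA, 5 vehicle), called males only. Macrophage markers also moved with treatment, 9 of 12 being called higher over all arrays and 7 in males only. The log2 of their summed signal ranged over 11.23 to 11.52 in CsA and 10.74 to 11.01 in vehicle arrays. Of 7 T cell markers limma called 0, with 0 at an unadjusted p under 0.05. Called higher were 1 of 8 adipocyte markers (2 in males only), 0 of 6 erythroid markers (3 in males only; 3 over all arrays at an unadjusted p under 0.05) and 1 of 10 proliferation markers (0 in males only, with 4 at an unadjusted p under 0.05). All 8 adipocyte markers were above 0 in both fits. Of them, 3 had an unadjusted p under 0.05 over all arrays and 6 in males only, against 20.8% and 18.8% of all genes. The part of infiltrating cells in the differences below was not tested, and in whole kidney fewer cells of a type and less RNA per cell cannot be told apart.

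After 7 days of CsA, the mRNA of 1 splicing factor rose and the mRNAs of 5 fell, by limma over all genes at an adjusted p under 0.05. Sf3b5, which encodes a small SF3B subunit, was 1.46-fold higher in CsA kidneys. Snrpa1, which encodes the A-prime protein of the U2 snRNP, was 1.32-fold lower, and Snrpn, an imprinted gene for the Sm protein SmN, was 1.33-fold lower. Smaller falls were called for the SR protein gene Srsf1 and for Hnrnpab and Hnrnph2. A member that missed the threshold is not thereby shown to be unchanged. The 6 calls are 12.2% of the 49 members, against 6.47% of all 30943 genes, of which 2.94% were called higher and 3.53% lower. In a fit of the genes at or above the median of mean signal, 12 of 46 members were called (26.1%), 2 higher and 10 lower, against 21.2% of the 15472 genes tested there, 9.51% higher and 11.7% lower. In males only 3 of 49 were called (6.12%), Sf3b5 higher and Snrpa1 and Hnrnpc lower, against 3.16% of all genes, 1.53% higher and 1.64% lower. With a term for the female arrays, Sf3b5 was called higher and Hnrnpc lower, against 3.25% of all genes, 1.62% higher and 1.64% lower.

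More members lay below vehicle than above it. The mean of CsA was lower for 37 of 49 members, against 48.2% of all genes, and in males only for 34, against 49.8%. The median difference (CsA minus vehicle) of the 49 was -0.08 on the log2 scale, against a median of 0.01 over all genes. It moved with the scaling of the arrays, to -0.041 with quantile normalization applied again and to -0.12 with arrays centred on their medians, where 29 and 40 members were below 0. The CsA and vehicle values did not overlap for 6 members on the lower side and 2 on the higher side, against 5.04% and 4.03% of all genes and 9.08% on either side. In males only, where fewer arrays make a gap more frequent, 12 members were apart on the lower side and 3 on the higher side, against 8.09% and 6.97% of all genes and 15.1% on either side. The members are measured on the same arrays, so these counts are not independent observations.

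**Figure D1:**
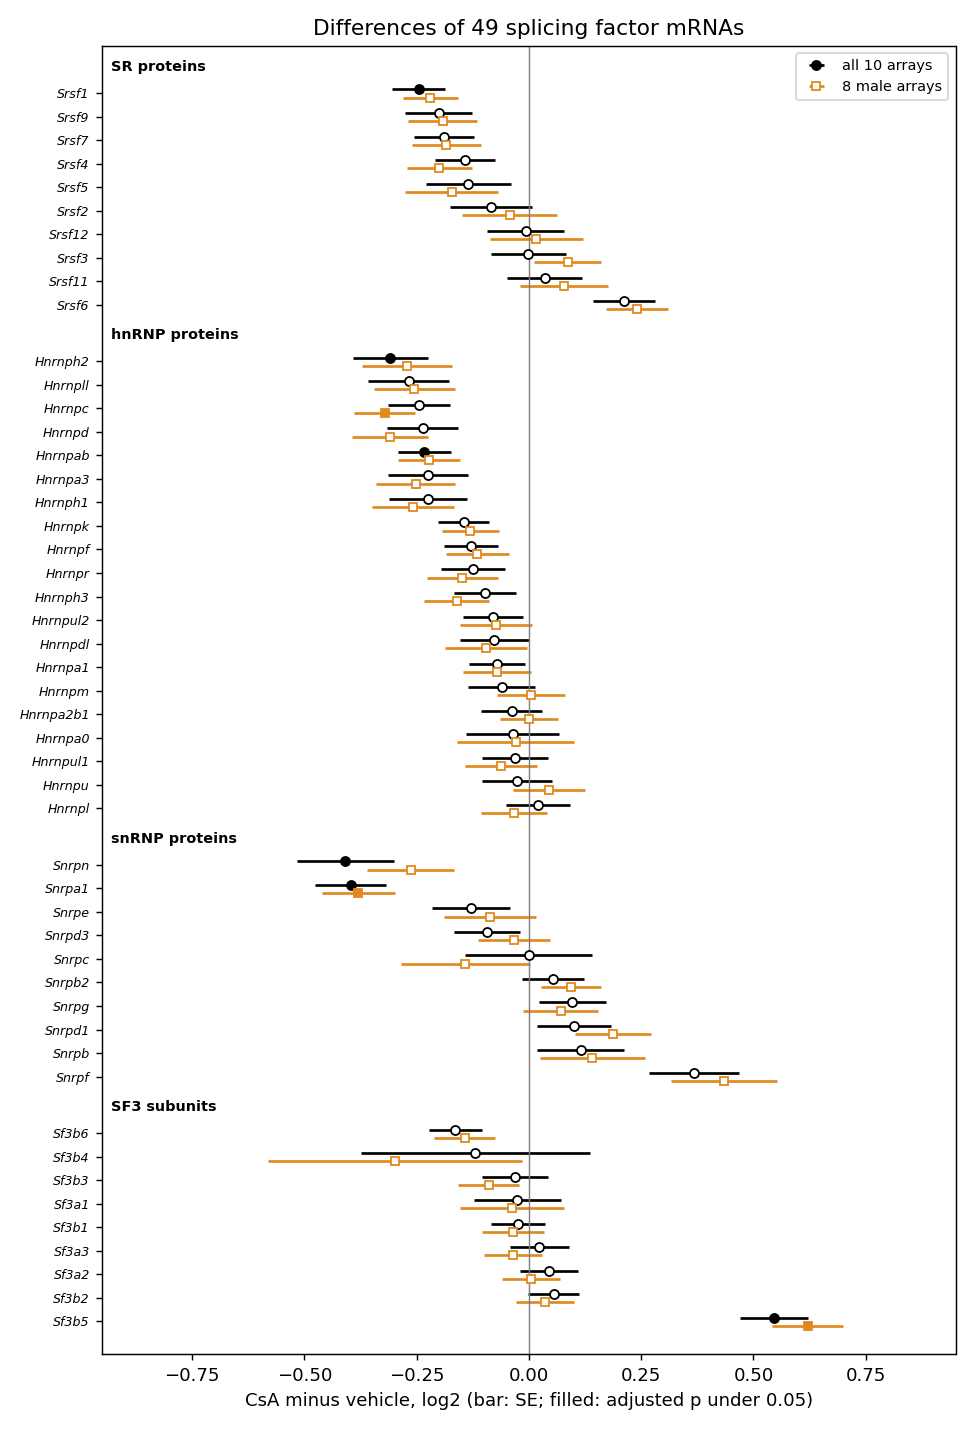
CsA minus vehicle on the log2 scale for the 49 genes, grouped by family, with circles for all 10 arrays, squares for the 8 male arrays and bars for the standard error (SE); filled marks have an adjusted p under 0.05. Sf3b5 stands farthest to the right at 0.55, Snrpn and Snrpa1 farthest to the left at -0.41 and -0.40, and 19 of 20 hnRNP genes lie left of 0 over all arrays.

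Start-site regions are shown for the 4 members that were called lower over all arrays or in males only and whose groups did not overlap, 1 snRNP gene, 1 SR protein gene and 2 hnRNP genes. Each is the 300-base window from 250 bases before to 50 bases after the gene's start in RefSeq (assembly GRCm38.p6), read along the gene. Snrpa1 lies on the plus strand at chr7:66060086-66060385, Srsf1 on the plus strand at chr11:88047123-88047422, Hnrnpab on the minus strand at chr11:51606832-51607131 and Hnrnpc on the minus strand at chr14:52103972-52104271. Capitals mark matches, on either strand, to the TATA box (TATAAA), the CCAAT box (CCAAT), the GC box (GGGCGG), the ETS core (CCGGAA), the NFAT core (TGGAAA) and the E-box (CACGTG), none of which contains another.
Snrpa1: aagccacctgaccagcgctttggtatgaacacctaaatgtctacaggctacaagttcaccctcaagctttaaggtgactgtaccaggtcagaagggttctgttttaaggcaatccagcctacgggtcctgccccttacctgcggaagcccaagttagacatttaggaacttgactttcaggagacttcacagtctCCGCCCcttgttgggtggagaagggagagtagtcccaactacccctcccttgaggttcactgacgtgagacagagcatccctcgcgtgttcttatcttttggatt
Srsf1: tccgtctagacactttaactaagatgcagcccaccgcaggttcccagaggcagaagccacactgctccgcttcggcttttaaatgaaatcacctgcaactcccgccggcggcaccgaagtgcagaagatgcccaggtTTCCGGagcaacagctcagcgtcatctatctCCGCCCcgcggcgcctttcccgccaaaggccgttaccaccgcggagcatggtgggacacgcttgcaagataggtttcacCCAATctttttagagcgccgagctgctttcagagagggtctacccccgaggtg
Hnrnpab: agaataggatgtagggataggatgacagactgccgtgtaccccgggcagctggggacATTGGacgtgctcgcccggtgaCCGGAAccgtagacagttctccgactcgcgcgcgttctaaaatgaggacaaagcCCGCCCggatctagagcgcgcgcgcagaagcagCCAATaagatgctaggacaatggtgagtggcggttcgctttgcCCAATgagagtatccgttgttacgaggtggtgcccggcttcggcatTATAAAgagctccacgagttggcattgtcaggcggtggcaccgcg
Hnrnpc: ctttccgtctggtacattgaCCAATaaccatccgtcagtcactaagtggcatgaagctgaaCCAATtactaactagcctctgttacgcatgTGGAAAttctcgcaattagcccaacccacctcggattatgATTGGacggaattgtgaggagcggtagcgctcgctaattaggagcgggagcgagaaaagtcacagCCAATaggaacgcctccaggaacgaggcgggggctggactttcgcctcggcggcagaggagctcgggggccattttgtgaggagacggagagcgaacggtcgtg

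The 4 windows held different sets of motifs, with some motifs shared. Snrpa1 had 1 GC box and no other match, Srsf1 had 1 CCAAT box, 1 GC box and 1 ETS core, Hnrnpab had 3 CCAAT boxes, 1 TATA box, 1 GC box and 1 ETS core, and Hnrnpc had 4 CCAAT boxes and 1 NFAT core. RefSeq windows were found for 43 of the 49 members, 59 windows in all. The ETS core, bound by a family of activators that includes GABPA, was in 50.8% of the members' windows, against 14.9% of all 32851 windows and 25.0% of those of genes at or above the median of mean signal. The NFAT core, which the transcription factors freed by calcineurin recognise, was in 10.2% of the members' windows, against 21.4% and 16.9% in the same order. GC boxes were in 67.8%, against 35.7% and 59.8%, CCAAT boxes in 45.8%, against 37.4% and 36.4%, TATA boxes in 10.2%, against 13.6% and 7.82%, and E-boxes in 8.47%, against 7.15% and 9.56%. The median GC content was 61% in the members' windows, against 52.7% in all windows. The part of base composition in these motif shares was not tested. A match says that these letters are present, and several windows of 1 gene are not independent.

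Among the subunits of SF3A and SF3B, Sf3b5 was higher with CsA and no other member was called (1 of 9, 11.1%, against 6.47% of all genes). In the fit of genes at or above the median of mean signal 1 of 8 was called higher and 1 lower (25.0%), near the 21.2% of all genes tested there. SF3B is a complex of proteins built on SF3B1 that clamps the branch point, and Sf3b5 encodes a small subunit of it. Sf3b5 had 8.03, 8.004, 8.10, 8.22 and 8.30 in CsA replicates 1 to 5, against 7.49, 7.73, 7.60, 7.54 and 7.57 in vehicle replicates 1 to 5. Every CsA array was above every vehicle array, and the 2 female arrays were the lowest of the CsA group. The difference was 0.55 ± 0.08 (SE; limma adjusted p = 0.00224), and 0.62 ± 0.08 in males only (limma adjusted p = 0.00672). The call held without each array in turn, with adjusted p between 0.00382 and 0.00847 over the 10 fits. In males only it held likewise, with adjusted p between 0.0120 and 0.0383 over the 8 fits.

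The other 8 SF3 genes were not called. Sf3b1, the large scaffold subunit that contacts the branch point region, averaged 9.10 ± 0.06 (SD, n = 5) in the CsA group, against 9.12 ± 0.06 (n = 5) in the vehicle group. Sf3b2 and Sf3b3, which encode subunits of the same complex, differed by 0.05 ± 0.06 and -0.03 ± 0.07 (SE). The 3 SF3A genes Sf3a1, Sf3a2 and Sf3a3 differed by between -0.03 and 0.04. Sf3b6, which encodes a further SF3B subunit, was at 8.36, 8.30, 8.44, 8.31 and 8.39 in CsA replicates 1 to 5, against 8.57, 8.59, 8.51, 8.51 and 8.45 in vehicle replicates 1 to 5. Its groups did not overlap, but the difference of -0.16 ± 0.06 missed the threshold (limma adjusted p = 0.132). Sf3b4 had a dim and variable signal, 3.67 ± 0.35 in CsA and 3.79 ± 0.59 in vehicle kidneys, and differed by -0.12 ± 0.26. The median of the 9 SF3 genes was -0.02, and 0.02 with quantile normalization applied again. Phf5a, another SF3B subunit that the naming rule does not include, fell by 0.32 on the log2 scale (limma adjusted p = 0.0422), opposite to Sf3b5. It was at 7.37, 7.01, 7.35, 7.03 and 7.05 in CsA replicates 1 to 5, against 7.44, 7.48, 7.54, 7.51 and 7.48 in vehicle replicates 1 to 5. The difference of Phf5a was -0.34 in males only, without passing there (limma adjusted p = 0.0630). Its call was also lost in 8 of the 10 fits that each leave out 1 array (adjusted p up to 0.0981), holding without CsA replicate 1 or 3, and with quantile normalization applied again (limma adjusted p = 0.0547).

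Among the snRNP proteins, Snrpa1 and Snrpn fell. The product of Snrpa1 pairs with that of Snrpb2 on a stem of U2 snRNA. Snrpa1 had 6.55, 6.22, 6.59, 6.33 and 6.36 in CsA replicates 1 to 5, against 6.84, 6.86, 6.87, 6.73 and 6.75 in vehicle replicates 1 to 5. The groups did not overlap, and the female arrays lay at the second highest and the lowest place of the CsA group. The difference was -0.40 ± 0.08 (SE; limma adjusted p = 0.0130), and -0.38 ± 0.08 in males only (limma adjusted p = 0.0380). The call held without each array in turn over all arrays (adjusted p up to 0.0378) but not with a term for the female arrays (limma adjusted p = 0.0549). In males only it was lost in 7 of 8 fits that each leave out 1 array, where adjusted p ranged up to 0.133; it held there without vehicle replicate 5. Its partner Snrpb2 averaged 5.85 ± 0.12 (SD) in the CsA group, against 5.80 ± 0.05 in the vehicle group, and differed by 0.05 ± 0.07 (SE).

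Snrpn is expressed from the paternal allele and encodes SmN, which can take the place of SmB in the Sm ring. It had 7.05, 7.12, 7.63, 7.40 and 7.31 in CsA replicates 1 to 5, against 7.56, 7.75, 7.88, 7.69 and 7.67 in vehicle replicates 1 to 5. The female arrays were the lowest of all 10, and CsA replicate 3 lay inside the vehicle range. The difference was -0.41 ± 0.11 (SE; limma adjusted p = 0.0431) with the female arrays and -0.26 ± 0.10 without them, where it did not pass (limma adjusted p = 0.182). Without each array in turn the call held only when CsA replicate 3 was left out (adjusted p = 0.0152), and elsewhere adjusted p ranged up to 0.105. Snrpb, which encodes SmB, differed by 0.12 ± 0.10 and was not called. SmB and SmN are close relatives in sequence, so the array may read part of one gene's signal from the other.

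**Figure D2:**
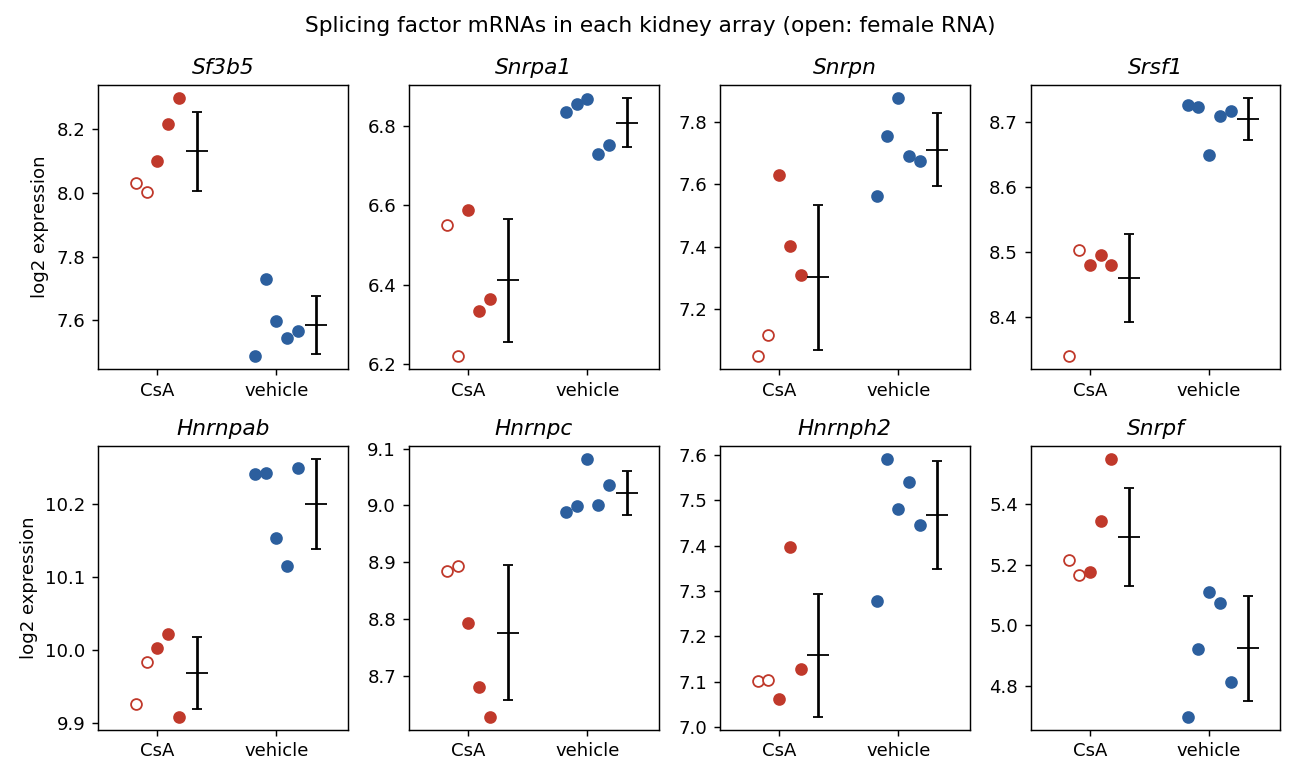
log2 expression of 8 splicing factor genes in each array, CsA left and vehicle right, with the mean and SD of each group (n = 5) as a bar and female RNA as open circles; the vertical scales differ between panels. The groups are apart for Sf3b5, Snrpa1, Srsf1, Hnrnpab, Hnrnpc and Snrpf and overlap for Snrpn and Hnrnph2.

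The other Sm proteins showed no call. Snrpf, which encodes SmF, was higher in every CsA array than in any vehicle array, at 5.22, 5.17, 5.18, 5.35 and 5.55 in CsA replicates 1 to 5, against 4.70, 4.92, 5.11, 5.07 and 4.81 in vehicle replicates 1 to 5. Its difference of 0.37 ± 0.10 lay just outside the threshold (limma adjusted p = 0.0508), also in males only (0.43 ± 0.12, limma adjusted p = 0.0829). Snrpd1 and Snrpg, for SmD1 and SmG, both differed by 0.10, and Snrpd3 and Snrpe, for SmD3 and SmE, by -0.09 and -0.13. The U1 snRNP gene Snrpc, whose product helps U1 read the 5' splice site, averaged 7.04 in both groups, with an SD of 0.32 in CsA and 0.17 in vehicle kidneys. Of the 10 snRNP genes 5 were below 0 and 5 above it, with a median of 0.03, which was -0.01 with arrays centred on their medians. Small Sm genes have processed pseudogenes, and their array signals are uncertain to that extent.

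Among the SR proteins, Srsf1 fell (1 of 10, 10.0%, against 6.47% of all genes) and the other 9 were not called. In the fit of genes at or above the median of mean signal 1 of 9 was called higher and 2 lower (33.3%, against 21.2% of all genes tested there). SRSF1 (SF2/ASF) is the founding SR protein, which promotes exon inclusion and acts in nonsense-mediated decay and translation. Srsf1 had 8.34, 8.503, 8.48, 8.495 and 8.48 in CsA replicates 1 to 5, against 8.73, 8.72, 8.65, 8.71 and 8.72 in vehicle replicates 1 to 5. All CsA arrays lay below all vehicle arrays, with CsA replicate 1 lowest. The difference was -0.25 ± 0.06 (SE; limma adjusted p = 0.0291), a 1.19-fold lower level, and -0.22 ± 0.06 in males only, where it missed the threshold (limma adjusted p = 0.0902). The call was lost without CsA replicate 1, 3 or 5 and without vehicle replicate 1, 2, 3 or 4, with adjusted p up to 0.0713.

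Srsf6 (SRp55), which regulates exon choice and is active in epithelial cells, was on the higher side, at 8.64, 8.90, 8.83, 8.82 and 8.86 in CsA replicates 1 to 5, against 8.56, 8.59, 8.51, 8.63 and 8.70 in vehicle replicates 1 to 5. Only the female CsA replicate 1 lay inside the vehicle range. Its difference of 0.21 ± 0.07 was not called (limma adjusted p = 0.0914; males only 0.24 ± 0.07, limma adjusted p = 0.0926), but passed without CsA replicate 1. It also passed in the fit of genes at or above the median of mean signal and with trend and robust moderation. Srsf7 (9G8) and Srsf9 (SRp30c) differed by -0.19 and -0.20, and Srsf4 and Srsf5 by -0.14 and -0.13, none past the threshold. Srsf2 (SC35), which marks nuclear speckles, differed by -0.08 ± 0.09, Srsf11 by 0.03 ± 0.08 and Srsf3, which also serves mRNA export, by 0.00 ± 0.08. Srsf12 was dim, with 4.07 ± 0.09 (SD) in the CsA group, against 4.08 ± 0.16 in the vehicle group. Over the family 8 of 10 were below 0, against 48.2% of all genes, with a median of -0.11. In males only 6 of 10 were below 0, against 49.8% of all genes. With quantile normalization applied again 7 were below 0, with a median of -0.08.

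Among the hnRNP genes 19 of 20 had a CsA mean below the vehicle mean, against 48.2% of all genes, and 2 of 20 were called (10.0%, against 6.47% of all genes). All 20 lay at or above the median of mean signal, and in the fit of such genes 5 of 20 were called (25.0%), near the 21.2% of all genes tested there. The CsA mean was below the vehicle mean for 19 genes over all arrays, for 17 in males only and for 16 with quantile normalization applied again, and the family median was -0.11, -0.12 and -0.07 in these fits. Centring on array medians put all 20 below 0, with a median of -0.15. The averaged deviation of the 20 genes from their vehicle means was -0.13, -0.11, -0.19, -0.07 and -0.16 in CsA replicates 1 to 5, against 0.03, 0.00, 0.01, -0.01 and -0.01 in vehicle replicates 1 to 5. On the deposited scale each CsA array was therefore lower than each vehicle array by this average, female and male alike. The average was not taken after other scalings or for other genes of similar signal. The same average for the snRNP and SF3 genes overlapped between the groups, and for the SR proteins CsA replicate 4, at 0.02, lay inside the vehicle range.

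**Figure D3:**
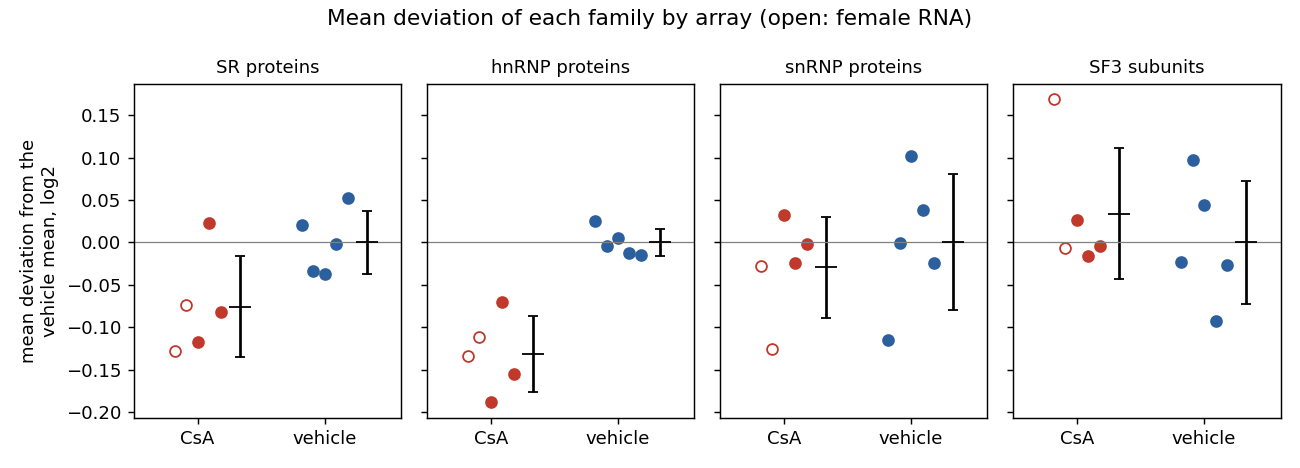
Deviation from the vehicle mean on the log2 scale, averaged over the genes of each family, for each array, CsA left and vehicle right, with the mean and SD of each group (n = 5) as a bar and female RNA as open circles. The hnRNP averages run from -0.19 to -0.07 in CsA arrays and from -0.01 to 0.03 in vehicle arrays, while the snRNP and SF3 averages overlap.

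Hnrnpab, an RNA- and DNA-binding protein of the A/B type, had 9.92, 9.98, 10.00, 10.02 and 9.91 in CsA replicates 1 to 5, against 10.24, 10.24, 10.15, 10.12 and 10.25 in vehicle replicates 1 to 5. The groups did not overlap, and the difference was -0.23 ± 0.06 (SE; limma adjusted p = 0.0379), or -0.22 ± 0.07 in males only (limma adjusted p = 0.117). The call was lost without any 1 of the 10 arrays, where adjusted p lay between 0.0515 and 0.0923. Hnrnph2, an X-linked gene of the H/F type that binds runs of G, had 7.10, 7.10, 7.06, 7.40 and 7.13 in CsA replicates 1 to 5, against 7.28, 7.59, 7.48, 7.54 and 7.44 in vehicle replicates 1 to 5. CsA replicate 4 and vehicle replicate 1 crossed. The difference of -0.31 ± 0.08 (limma adjusted p = 0.0482) was -0.27 ± 0.10 in males only (limma adjusted p = 0.183). Its call held only without CsA replicate 4 or vehicle replicate 1, and adjusted p was 0.0714 to 0.115 without each of the other arrays. The related Hnrnph1 and Hnrnpf differed by -0.22 ± 0.09 and -0.13 ± 0.06 and Hnrnph3 by -0.10 ± 0.07, none called, and H1 and H2 are similar enough to share array signal.

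Hnrnpc, whose protein binds runs of U and keeps cryptic exons out, had 8.88, 8.89, 8.79, 8.68 and 8.63 in CsA replicates 1 to 5, against 8.99, 8.998, 9.08, 9.001 and 9.04 in vehicle replicates 1 to 5. All CsA arrays were below all vehicle arrays, and the 2 female arrays were the nearest to vehicle. The difference was -0.25 ± 0.07 over all arrays (limma adjusted p = 0.0562) and -0.32 ± 0.07 in males only, where it passed (limma adjusted p = 0.0382). Each of the 8 males-only fits that leave out 1 array lost the call, with adjusted p from 0.0549 to 0.137. Over all arrays it passed without CsA replicate 1 (limma adjusted p = 0.0497).

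The other hnRNP genes were not called. Hnrnpd (AUF1), which binds AU-rich elements of unstable mRNAs, differed by -0.24 ± 0.08 (limma adjusted p = 0.101), and Hnrnpll, known for CD45 splicing in lymphocytes, by -0.27 ± 0.09 (limma adjusted p = 0.103). Hnrnpk, which binds runs of C, was at 10.37, 10.27, 10.36, 10.39 and 10.32 in CsA replicates 1 to 5, against 10.54, 10.53, 10.49, 10.45 and 10.43 in vehicle replicates 1 to 5, without overlap, and differed by -0.15 ± 0.06 (limma adjusted p = 0.167). Hnrnpa3 differed by -0.22 ± 0.09 and Hnrnpr by -0.12 ± 0.07. The abundant splicing repressors Hnrnpa1 and Hnrnpa2b1 differed by -0.07 ± 0.06 and -0.04 ± 0.07, and Hnrnpa0 by -0.04 ± 0.10. Hnrnpm, Hnrnpu, Hnrnpul1, Hnrnpul2 and Hnrnpdl differed by between -0.08 and -0.03, and Hnrnpl, which binds CA repeats, was the member on the other side at 0.02 ± 0.07.

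Of the members, 7 had more than 1 array feature, and the features of each gene ran the same way. The 2 further Hnrnpf features differed by -0.22 each, against -0.13 for the chosen one, and the further Hnrnpk feature by -0.28 ± 0.08, against -0.15. The second Hnrnph2 feature differed by -0.24 ± 0.15, against -0.31. Those of Hnrnpa1, Hnrnpr and Hnrnpu differed by -0.01, -0.08 and -0.11, and that of Snrpd1 by 0.15. In a fit of all features none of these further features was called.

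Few other genes of the splicing machinery were called. Of 204 measured genes in 10 lists, 2 rose and 6 fell (3.92%, against 6.47% of all genes), with a median of -0.03, and in males only 2 rose and 2 fell (1.96%, against 3.16% of all genes). In the fit of genes at or above the median of mean signal, 3 of 191 were called higher and 16 lower (9.95%, against 21.2% of all genes tested there). Among activation and catalytic step factors 2 of 27 fell (7.41%, against 6.47% of all genes). They were Smu1, a partner of IK in spliceosome activation, by 0.36 (limma adjusted p = 0.00714) and Cdc40, a second-step factor, by 0.36 (limma adjusted p = 0.00815). Both were also called in males only (limma adjusted p = 0.0289 and 0.0290). Smu1 averaged 6.54 ± 0.07 (SD) in the CsA group, against 6.90 ± 0.07 in the vehicle group, and Cdc40 averaged 8.18 ± 0.10 in the CsA group, against 8.55 ± 0.05 in the vehicle group.

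In the exon junction complex 1 of 9 genes fell (11.1%, against 6.47% of all genes). This was Magoh, a core subunit, which fell by 0.46 (limma adjusted p = 0.0210). Magoh was at 6.81, 7.01, 7.03, 7.14 and 6.68 in CsA replicates 1 to 5, against 7.63, 7.46, 7.25, 7.27 and 7.36 in vehicle replicates 1 to 5. In males only it differed by -0.44 without passing (limma adjusted p = 0.0886), and the call was lost without vehicle replicate 1 or 2 (adjusted p up to 0.0551). For snRNP assembly 2 of 17 fell (11.8%, against 6.47% of all genes). Among genes at or above the median of mean signal 3 of 14 of this list were called (21.4%), near the 21.2% of all genes tested there. The 2 that fell in the fit of all genes were Prmt5, which methylates Sm proteins, by 0.31 (limma adjusted p = 0.0181) and Tgs1, which forms the trimethyl cap of snRNAs, by 0.29 (limma adjusted p = 0.0280). Neither passed in males only (limma adjusted p = 0.0911 and 0.0750), and Tgs1 also lost its call in 7 of the 10 fits that each leave out 1 array, holding without CsA replicate 1 or 4 or vehicle replicate 5. On the higher side, Lsm4 of the U6 ring rose by 0.27 (limma adjusted p = 0.0399) and Zmat5 of the minor U11/U12 snRNP by 0.27 (limma adjusted p = 0.0158), and both were called in males only (limma adjusted p = 0.0345 and 0.0458). Over all arrays the call of Lsm4 was lost in 9 of the 10 fits that each leave out 1 array (adjusted p up to 0.0904), holding without CsA replicate 1, and with arrays centred on their medians (limma adjusted p = 0.0916). Zmat5 kept its call without each array in turn and missed with arrays centred on their medians (limma adjusted p = 0.0540). They were 1 of 25 tri-snRNP genes (4.0%) and 1 of 11 minor spliceosome genes (9.09%), against 6.47% of all genes.

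Phf5a was the 1 gene called of 24 U1 and U2 partners (4.17%, against 6.47% of all genes). Limma called none of 12 kinases and import factors of SR proteins, 21 SR-related proteins, 33 alternative splicing regulators and 25 hnRNP-related proteins, with 4, 2, 4 and 6 at an unadjusted p under 0.05, against 20.8% of all genes. The median difference was -0.13 for the kinase list, which holds the Srpk and Clk kinases that phosphorylate SR proteins, and between -0.07 and 0.02 for the 9 other lists.

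**Figure D4:**
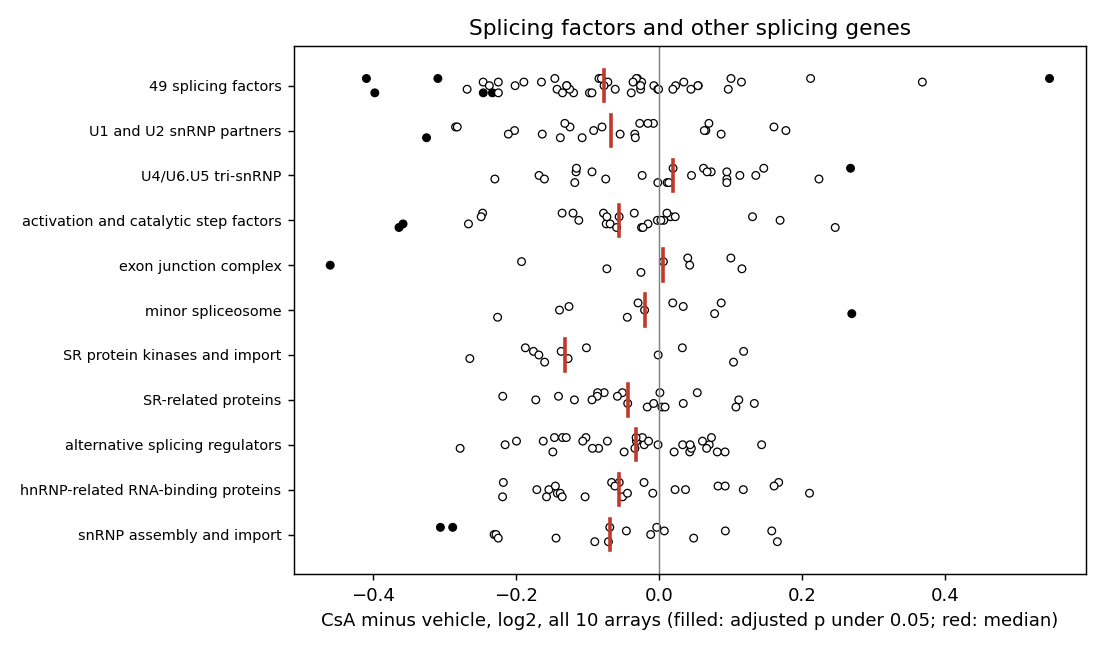
CsA minus vehicle on the log2 scale over all 10 arrays for the 49 splicing factors and for the genes of 10 other splicing lists, 1 point per gene, filled where the adjusted p is under 0.05, with the median as a red bar. Most points lie within 0.3 of 0, and Sf3b5 at 0.55 is the farthest from it.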

How the data were processed

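Kidney RNA (200 ng per sample) was read on Affymetrix Mouse Gene ST 2.0 arrays, 1 per sample, per the labels' protocols. The deposited values are log2 expression, made by the authors with RMA and Partek 6.4, per the submitters' processing notes, which give no order or settings; the genome build and annotation version are not given in the sources used here. The 2 deposited tables held the same values for 41345 features. The 8874 features without a symbol were left out, and 1 feature per symbol, the brightest, gave 30943 genes. The comparison of CsA with vehicle used limma 3.58.1 (lmFit, eBayes, 2-sided, no covariate; R 4.3.3), with Benjamini-Hochberg adjustment over all genes and a threshold of 0.05. No dim gene was removed. Probes near background compress differences, and the number of arrays limits the precision. The procedure was tested on simulated data. Members called in the fit of all arrays or of males only were given in every array, with up to 3 called genes from each other list by smallest p. The males-only fits without 1 array and the values of Snrpf, Srsf6, Sf3b6 and Hnrnpk were added after the data were seen. Members, lists, alternatives and rules were chosen with earlier results of these data known. Symbols were matched to RefSeq (GRCm38.p6) for list names, gene spans and start-site windows.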

Additional observations from a re-analysis of the deposited data

Results flagged for a closer look

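In 9 of 114 group-by-gene sets of 5 arrays, 1 array lay far from the other 4 by a gap test (Dixon, critical value 0.71), a rule that chance meets in about 1 of 20 sets. In the CsA group, replicate 1, a female array, was the lowest for Srsf1 (8.34, others 8.48 to 8.503), Hnrnpa2b1 (9.11, others 9.32 to 9.38) and Srsf6 (8.64, others 8.82 to 8.90), and the highest for the dim Sf3b4 (4.29, others 3.39 to 3.59). CsA replicate 4 was the highest for Hnrnph2 (7.40, others 7.06 to 7.13) and Hnrnpf (8.81, others 8.61 to 8.67), and CsA replicate 5 for the dim Srsf12 (4.23, others 3.998 to 4.05). In the vehicle group, replicate 3 was the lowest for Srsf1 (8.65, others 8.71 to 8.73) and replicate 1 for Srsf3 (7.16, others 7.31 to 7.35).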

How the results depend on the processing

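Sf3b5 was called higher under all 22 alternatives, with differences from 0.50 to 0.62, and Snrpa1 was called lower under 21 of 22, the exception being the term for female arrays. None of the 7 members called over all arrays or in males only changed direction under these alternatives. Over all arrays 1 member rose, 5 fell and 2003 genes were called. In males only 1 member rose, 2 fell and 979 genes were called. Under the female term 1 member rose, 1 fell and 1006 genes were called. Among genes at or above the 25th percentile of mean signal 2 members rose and 6 fell, with 2623 genes called. Among those at or above the median 2 rose and 10 fell, with 3281 genes called. The smaller number of genes tested lowers the adjustment. With trend and robust moderation 3 rose and 8 fell, and 2764 genes were called. With array weights 2 rose and 6 fell, and 2176 genes were called. With all features tested 1 rose and 2 fell, and 1435 genes were called. Some members called neither over all arrays nor in males only passed under 1 or more alternatives. These were Snrpf and Srsf6, higher, and Hnrnpd, Hnrnpk, Hnrnpll, Sf3b6 and Srsf7, lower. Quantile normalization again left 1 member higher and 1 lower, with 1992 genes called, and a median difference of the members of -0.041. Srsf1, Hnrnpab, Hnrnph2 and Snrpn lost their calls there (limma adjusted p from 0.0515 to 0.0754). The median was -0.12 with arrays centred on their medians and -0.11 with centring within 20 bins of gene span, which was added after the data were seen, against -0.08 in the fit of all arrays; the cause was not tested. Leaving out each array in turn gave 1 to 2 members higher, 1 to 3 lower, medians from -0.10 to -0.058, and 1132 to 1929 genes called. No paired analysis was possible because the labels give the groups no shared replicate numbers. Of the 8 other splicing genes named, Smu1 and Cdc40 kept their calls under all 22 alternatives, and Lsm4 and Phf5a lost theirs under 12 and 13. Srsf12 and Sf3b4 had the lowest mean signals of the members, and no background level was measured.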

Other observations

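Within the CsA group, the 2 female arrays stood apart from the 3 male arrays for Snrpn and Hnrnpc, members chosen here after their values were seen. Other members were apart in the same way, among them Sf3b5, Hnrnpd, Srsf4 and Snrpd1. With so few arrays such a gap is frequent, and its share over all genes was not counted. Snrpn averaged 7.08 in the female and 7.45 in the male CsA arrays, and Hnrnpc 8.89 in the female and 8.70 in the male. With no female vehicle array, sex and the response to CsA cannot be told apart in these arrays.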
